A study of Mus musculus with 8 samples.

Results

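Mesothelial and epicardial surface genes and the keratins of simple epithelia are the genes described here. They number 10 of the 22367 protein-coding genes, and of 37273 genes of all types, that the GENCODE annotation of the mouse build mm9 holds on the autosomes, X and Y. The genes were listed by name for their known place in the outer layer of the heart by a rule that uses no measured value. Earlier results of these data were nevertheless known when they were chosen. They comprise the surface proteins Msln, Lrrn4, Podxl and Gpc3, the integrin chain Itga4, the secreted proteins Sema3d and Rspo1, and the keratins Krt8, Krt18 and Krt19. Krt8 is also among the epicardial genes that the study displayed, and the other 9 members are not.

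The study asked where BRG1, the ATPase of SWI/SNF chromatin remodelling complexes, sits in the genome of the infarcted heart after priming with thymosin β4 (Tβ4), a small actin-binding peptide. Adult C57BL/6 mice, aged 10 to 12 weeks, received Tβ4 at 12 mg per kg or the vehicle PBS by daily intraperitoneal injection for 1 week. A coronary artery was then tied off for good to infarct the heart (day 0), more Tβ4 or PBS was given on days 0 and 2, and hearts were taken on day 4. Strain and age are as the labels give them, whereas the paper writes C57BL/6J and gives a somewhat higher age. Each group, Tβ4-primed and PBS-primed, gave 2 BRG1 ChIP libraries and 2 input libraries, 8 in all. All values come from 1 deposited list of 524614 regions, whose names set BRG1 ChIP against input in Tβ4-primed, infarcted hearts. The rule that defines a region is uncertain. PBS-primed data and the input libraries were not analysed here. The list pools the duplicates, and how they were combined is not stated. It carries no read count or score, so the depth is unknown and no value has a replicate error. Chromatin came from whole hearts, so the contributions of epicardial cells and of other cell types cannot be told apart.

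The epicardium is the mesothelial sheet that covers the heart. Its cells resemble those lining other body cavities: they are joined like an epithelium, hold keratin filaments and carry a coat of glycoproteins on their free surface. In the embryo the sheet spreads over the heart muscle and gives rise to fibroblasts and mural cells, and in the adult it becomes active again after injury.

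Regions lay near all 10 genes, and what set the members apart from one another was how much of each gene they covered. A window was defined as the gene body with 5 kb on either side, and a region counted with at least 1 bp of overlap. All 10 members had a region in the window, as did 97.5% of all protein-coding genes, and 9 of 10 had a region in the gene body, beside 84.1%. Within 5 kb of the transcription start site (TSS) the count was 9 of 10, beside 90.5%. These shares were close to those of all protein-coding genes. The exception in the gene body was Krt8, and the exception near the TSS was Podxl. A region lay over the TSS itself at 4 of 10 members, namely Lrrn4, Krt19, Sema3d and Gpc3, beside 24.2% of all protein-coding genes.

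The covered share is the percentage of bases in a window that lie inside regions. Its median over the 10 members was 34.4%, and over all protein-coding genes it was 25.2%. The members ranged from 2.89% at Krt8 to 62.1% at Krt19. Covered shares vary with gene length, so each member was also ranked among the 200 protein-coding genes nearest to it in length. The median percentile was 79.0, with 7 of 10 members above the median of their like-length genes and 6 of 10 above the percentile of 75. Krt19, Sema3d, Gpc3, Lrrn4, Itga4 and Rspo1 formed the upper group, Krt18 was in the middle, and Podxl, Msln and Krt8 lay below the medians of their like-length genes. Both counts depended on the genes compared. With genes matched in GC content, Itga4 was at the percentile of 68.0 and Krt18 at 46.0. Among all annotated genes, Rspo1 was at 73.5 and Krt18 at 49.0. With regions within 500 bp joined, Krt18 was at 48.0. No member rose past either mark in these settings.

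By the medians of the list, the members ranked higher by covered share than by number of regions, which held for 6 of the 10 and not for Msln, Podxl, Krt8 and Rspo1. Counted as regions per kb of window, the median of the members was 0.221, beside 0.228 for all protein-coding genes, and its median percentile was 44.0. The windows held 182 regions in all, none of them shared between windows. Their median length was 810 bp, beside 600 bp for all regions of the list, and 44.5% of them reached 1 kb, beside 36.0%. This excess came from the longest members, Gpc3 and Sema3d, which held 118 of the 182 regions: in the other 8 members 23 of 64 regions, or 35.9%, reached 1 kb, and their median length was 630 bp. Regions of 5 kb or more made up 15 of the 182, or 8.24%, beside 4.19% of all regions. Gpc3 held 8 of these 15, Itga4 held 4, and Lrrn4, Krt19 and Sema3d had 1 each. Without Gpc3 and Sema3d the share of 5 kb or more was 9.38%, or 6 of 64 regions, and 4 of these 6 were those of Itga4. Gpc3 and Itga4 thus held most of the regions of this length. With regions shorter than 1 kb left out, the median covered share of the members was 22.7%, beside 17.9% for all protein-coding genes.

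**Figure D1:**
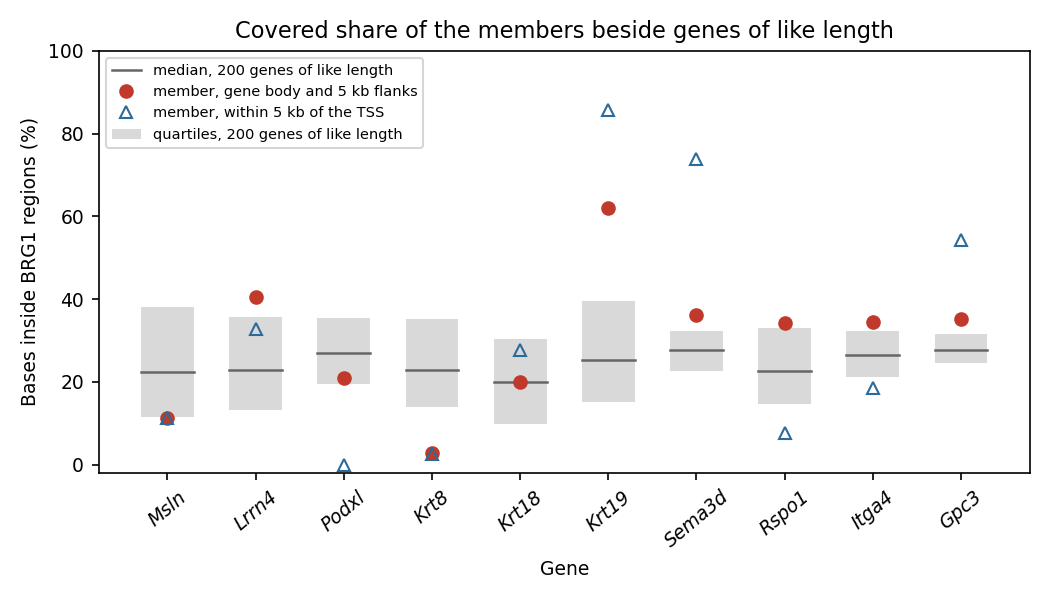
Percentage of bases inside BRG1 regions (vertical axis) for each of the 10 members (horizontal axis), over the gene body with 5 kb flanks (filled circles) and within 5 kb of the TSS (open triangles); grey boxes and lines give the quartiles and median of the window share in the 200 protein-coding genes nearest in length. Krt19 at 62.1% lies far above its grey box and Krt8 at 2.89% far below its own.

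At Lrrn4, Gpc3 and Sema3d, the 250 bases upstream of the TSS lay wholly inside the region over it. These promoters are printed to show what DNA the regions covered. All are from mm9 and read 5′ to 3′ on the strand of the gene, and capitals mark CpG dinucleotides. For Krt19 the promoter of the coding transcript is shown, which starts 2545 bp downstream of the first base of the gene model.
Lrrn4, chr2:132706628-132706877, minus strand: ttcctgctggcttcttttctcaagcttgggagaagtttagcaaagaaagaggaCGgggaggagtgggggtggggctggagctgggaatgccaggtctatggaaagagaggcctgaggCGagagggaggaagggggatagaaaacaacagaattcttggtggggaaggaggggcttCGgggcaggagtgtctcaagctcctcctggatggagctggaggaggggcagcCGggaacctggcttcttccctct
Gpc3, chrX:49967128-49967377, minus strand: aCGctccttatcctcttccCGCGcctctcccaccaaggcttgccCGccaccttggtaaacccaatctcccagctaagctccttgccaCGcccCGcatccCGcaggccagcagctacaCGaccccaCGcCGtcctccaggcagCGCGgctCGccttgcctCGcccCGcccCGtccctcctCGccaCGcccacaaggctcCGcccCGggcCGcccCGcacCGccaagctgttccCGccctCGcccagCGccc
Sema3d, chr5:12382916-12383165, plus strand: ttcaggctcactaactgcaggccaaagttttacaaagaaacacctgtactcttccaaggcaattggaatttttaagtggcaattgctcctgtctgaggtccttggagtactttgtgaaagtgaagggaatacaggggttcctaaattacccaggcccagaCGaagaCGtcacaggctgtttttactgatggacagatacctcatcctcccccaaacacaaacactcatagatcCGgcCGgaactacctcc
Krt19 coding transcript, chr11:100007435-100007684, minus strand: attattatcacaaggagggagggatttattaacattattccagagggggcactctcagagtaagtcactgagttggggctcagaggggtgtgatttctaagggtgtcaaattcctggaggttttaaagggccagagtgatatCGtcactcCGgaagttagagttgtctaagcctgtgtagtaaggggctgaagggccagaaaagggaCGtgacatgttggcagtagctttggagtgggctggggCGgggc

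The promoter of Gpc3 stood apart from the others, with 26 CpG dinucleotides and a GC content of 72.4%, at the percentile of 93.0 among all protein-coding genes. The Lrrn4 and Sema3d promoters held 4 CpG dinucleotides each, with GC contents of 58.0% and 46.8%. The promoter of the Krt19 coding transcript also held 4 CpG dinucleotides. Covered start sites among the members were thus both CpG-rich and CpG-poor. Of the members without a region over the TSS, Podxl and Rspo1 had CpG-rich promoters too, with observed to expected CpG ratios of 0.823 and 0.799, beside 0.992 at Gpc3. The median GC content of the 10 promoters was 59.8%, beside 54.0% for all promoters, and their median CpG ratio was 0.308, beside 0.496. Across all protein-coding genes, promoters with a region over the TSS had a median CpG ratio of 0.482 and those without one had 0.503.

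For 5 of the members without a region over the TSS, the region nearest to it is printed instead, whole up to 300 bases and otherwise its central 300 bases. Capitals mark matches to any of 5 short motifs, searched on both strands. The motifs were TTGCNNAA for C/EBP factors, TGANTCA for AP-1, GGAATG for TEAD factors, AGATAA for GATA factors and GTGGGAG, a WT1-like motif. They do not overlap one another in these sequences. Build and strand are given as for the promoters: mm9, on the strand of the gene.
Msln, chr17:25894590-25894829, minus strand: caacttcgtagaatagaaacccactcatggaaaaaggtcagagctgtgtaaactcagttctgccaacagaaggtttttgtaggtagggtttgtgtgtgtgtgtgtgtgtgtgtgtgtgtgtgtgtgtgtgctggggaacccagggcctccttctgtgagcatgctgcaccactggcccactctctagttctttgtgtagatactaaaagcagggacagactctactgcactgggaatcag
Podxl, chr6:31520490-31520789, minus strand: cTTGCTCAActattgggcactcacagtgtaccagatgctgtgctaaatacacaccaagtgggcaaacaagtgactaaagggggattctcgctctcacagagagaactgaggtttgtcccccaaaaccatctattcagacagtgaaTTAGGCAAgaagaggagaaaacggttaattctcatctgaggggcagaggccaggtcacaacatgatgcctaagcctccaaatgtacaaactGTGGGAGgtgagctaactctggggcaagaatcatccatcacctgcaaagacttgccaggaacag
Itga4, chr2:79093590-79093889, plus strand: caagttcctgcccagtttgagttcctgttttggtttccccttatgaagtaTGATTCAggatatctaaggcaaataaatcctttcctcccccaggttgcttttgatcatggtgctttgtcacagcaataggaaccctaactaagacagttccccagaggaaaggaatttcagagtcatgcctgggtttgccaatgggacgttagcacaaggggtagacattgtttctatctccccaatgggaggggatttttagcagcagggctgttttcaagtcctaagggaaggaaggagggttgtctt
Rspo1, chr4:124662180-124662419, plus strand: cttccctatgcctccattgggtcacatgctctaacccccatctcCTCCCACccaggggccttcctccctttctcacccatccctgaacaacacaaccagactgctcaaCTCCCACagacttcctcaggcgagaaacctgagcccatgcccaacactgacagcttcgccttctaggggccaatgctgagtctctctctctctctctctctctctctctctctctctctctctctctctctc
Krt8, chr15:101837970-101838239, minus strand: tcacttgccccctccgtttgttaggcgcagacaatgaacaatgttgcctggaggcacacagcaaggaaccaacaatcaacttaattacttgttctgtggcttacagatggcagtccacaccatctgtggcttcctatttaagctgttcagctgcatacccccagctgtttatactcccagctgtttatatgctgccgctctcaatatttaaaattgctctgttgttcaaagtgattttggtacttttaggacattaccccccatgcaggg

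The Podxl sequence held a pair of C/EBP matches, spelled TTGCTCAA and TTAGGCAA, and a WT1-like match. Rspo1 had 2 WT1-like matches on the opposite strand, and Itga4 had an AP-1 match spelled TGATTCA. None of the 5 motifs was found in the Msln and Krt8 sequences. Repeats made up part of this DNA: the Msln region held a run of 40 bases of the unit TG, and the Rspo1 region ended in 52 bases of the unit TC. In the promoters, each motif occurred at 1 of 10 members. C/EBP was found at Lrrn4, beside 9.16% of all promoters, and TEAD also at Lrrn4, beside 11.4%. AP-1 occurred at Msln, beside 6.00%, GATA at Krt8, beside 9.33%, and the WT1-like motif at Gpc3, beside 8.11%. One member in 10 is close to each of these shares.

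In the central 210 bases of the 182 member regions, C/EBP was present in 13.7%, beside 9.68% of all regions. AP-1 was present in 7.69%, beside 6.13%, and the WT1-like motif in 6.04%, beside 4.15%. TEAD, in 17 of 182 regions or 9.34%, beside 11.3%, and GATA, in 23 or 12.6%, beside 13.8%, were near their shares in all regions. Without the regions of Gpc3 and Sema3d, C/EBP was at 9.38% and TEAD at 12.5%, so the side of the background on which they lay rested on these genes. AP-1 was then at 6.25%, next to its background, the WT1-like motif at 7.81% and GATA at 10.9%. The median GC content was 40.5% in the member regions, beside 41.6% in all regions, and it was 38.1% in those of Gpc3 and Sema3d and 47.9% in those of the other 8 members. Such matches describe letters in the DNA and do not show that a factor was bound.

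Mesothelin, the product of Msln, is a surface glycoprotein held by a lipid anchor and is a classical marker of mesothelial cells. Its gene, chr17:25885559-25891272 on the minus strand, had a covered share of 11.2% in its window, beside a median of 22.5% in genes of like length. That low value rested on the flanks: the body alone had 19.4%, at the percentile of 46.0, and the window with 10 kb flanks 21.9%. A single region of 1110 bp lay in the gene body, from 4123 to 5232 bp downstream of the TSS, across exons 12 to 14 of 16. The nearest region to the TSS was the printed one of 240 bp, which ended 3318 bp upstream. Promoter, first exon and first intron were thus free of regions. Mslnl, the mesothelin-like neighbour whose 3′ end lies 283 bp from that of Msln, had a covered share of 14.5%, and the bases between both genes were not covered. On the other side, 19448 bp away, Narfl had 17.0%. Outside the window, the bases up to 50 kb from the gene were covered to 20.6%, beside 25.0% for the whole chromosome.

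Lrrn4 encodes a transmembrane protein with leucine-rich repeats that is also used as a mesothelial marker. Its window, around chr2:132694041-132706627 on the minus strand, was covered to 40.6%, at the percentile of 84.5. The gene was covered at its ends more than in its middle. A region of 1560 bp lay over the TSS, from 412 bp upstream to 1147 bp downstream, and covered the whole 5′ UTR and first intron. At the other end a region of 5700 bp began in the last exon, took in 67.2% of the 3′ UTR and 95.2% of the downstream flank, and filled the 1519 bp up to Crls1, the cardiolipin synthase gene, whose own window was covered to 43.4%. Coding exons were covered to 12.3%. The upstream neighbour Fermt1, a kindlin of epithelial cells, had a covered share of 35.1% and no region over its TSS. Among the 4 Lrrn genes, Lrrn4 had the highest share and Lrrn1 the lowest, 19.7%, and the list had a median of 27.3%. Regions lay over 3 of the 4 start sites, beside 24.2% for all protein-coding genes.

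Podocalyxin, encoded by Podxl, is a heavily charged sialomucin that keeps apposed membranes apart in kidney podocytes and coats mesothelial cells. No region touched the 5 kb on either side of its TSS, and the longest stretch of the window without a region measured 21742 bp. The nearest region, of 780 bp, ended 6269 bp upstream of the TSS, outside the window, and its centre is the sequence printed above. Coverage lay at the far end of the gene instead. The 8 regions wholly inside introns were all in intron 1, the first of them 16742 bp from the TSS, and together covered 10.9% of it. A region of 3840 bp reached into the last exon, and the 3′ UTR of 3537 bp was covered to 85.6%. The downstream flank, up to and into the neighbour Mkln1, was covered to 75.0%, and Mkln1 had a covered share of 20.6% and a region over its own TSS. Upstream, 1700012A03Rik lies 486264 bp away and had 1.45%. The whole window, around chr6:31469488-31513981 on the minus strand, had a covered share of 21.0%, beside a median of 27.1% in genes of like length. The 5 partners and relatives of podocalyxin had a median of 30.2%. Among them, Ezr, whose product ezrin links such proteins to actin, had the highest share, 53.5%, and Cd34, a related sialomucin gene, the lowest, 6.56%.

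Gpc3 encodes glypican 3, a lipid-anchored heparan sulphate proteoglycan that restrains growth and binds Wnt and Hedgehog ligands. It is the longest member, 341525 bp at chrX:49625603-49967127 on the minus strand, and held 68 regions. Its covered share of 35.2% was at the percentile of 86.5. A region of 3300 bp lay over the TSS, from 2192 bp upstream to 1107 bp downstream, and within 5 kb of the TSS the covered share was 54.2%. All 7 introns were touched, and the last 2 were the least covered of them. Intron 2, of 153662 bp, held 30 regions and was covered to 41.6%, and it contained the longest region of the gene, 8610 bp. Intron 6 was covered to 23.5% and intron 7 to 8.02%, while the 3′ UTR and the downstream flank had no covered base. The X chromosome as a whole was covered to 23.6%. Gpc4, the glypican gene next to it, lies 107173 bp downstream and had a covered share of 33.2% and a region over its TSS. Ccdc160, upstream, had 58.3%. Of the 6 glypican genes, Gpc3 had the highest share and Gpc1 the lowest, 9.18%, around a median of 27.9%. A region lay over the TSS at 2 of the 6, beside 24.2% of all protein-coding genes.

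**Figure D2:**
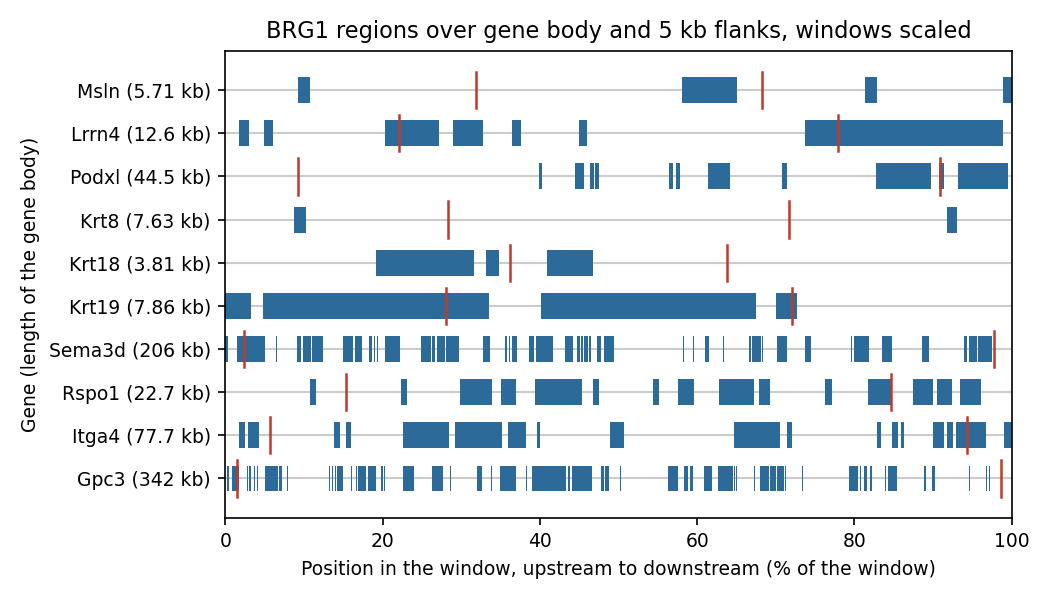
Regions (blue) over each member's gene body and 5 kb flanks, with the position in the window as a percentage of its length on the horizontal axis and the genes, with the length of the gene body, on the vertical axis; red marks show the start and end of the gene body. Podxl has its regions towards the downstream end, whereas the last part of Gpc3 holds few.

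Integrin α4, the product of Itga4, pairs with a β chain to bind VCAM1 and fibronectin, and the epicardium needs it to stay attached to the heart muscle. The gene lies at chr2:79095583-79173280 on the plus strand, and its window was covered to 34.5%, at the percentile of 81.5. Of its 18 regions, 4 were 5 kb or longer. A pair of these, of 5130 and 5160 bp, lay one after the other from 14807 to 25816 bp downstream of the TSS, over exons 3 to 7 of 28, and a region of 5100 bp lay in intron 17. The longest, of 9150 bp, started beyond the 3′ end, and 811 bp of it fell inside the window. Within 5 kb of the TSS, regions lay on the upstream side alone, where they covered 37.2% of the flank. The nearest region, of 1260 bp, ended 1214 bp upstream of the TSS. The share within 5 kb of the TSS was 18.6%, at the percentile of 41.8, beside a median of 24.6% in genes of like length. The 3′ UTR, of 6502 bp, was covered to 48.0%. The nearest protein-coding genes that do not overlap it were Ube2e3, with 25.0%, and Neurod1, with 1.69%.

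The 5 partners of integrin α4 had a median covered share of 43.1%. Regions lay over 2 of their start sites, beside 24.2% for all protein-coding genes. Itgb7, a β chain that pairs with it on lymphocytes, had the highest share among them, 51.2%, and Madcam1, a ligand of that pair, the lowest, 27.1%. All 5 lay above the median of genes of their length. The 18 integrin α chains, Itga4 included, had a median of 29.8%, from 11.4% at Itgae to 53.9% at Itga5. Of the 18, 7 had a region over the TSS, beside the same 24.2%. Itga4 thus lay above the median of its family by window, without a region over its TSS.

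Sema3d encodes a secreted semaphorin that guides axons and endothelial cells and is made by epicardial cells. Its gene, of 205778 bp at chr5:12383166-12588943 on the plus strand, held 50 regions and had a covered share of 36.2%, at the percentile of 89.0. The start of the gene lay inside a region of 7680 bp, from 1776 bp upstream to 5903 bp downstream of the TSS, at the percentile of 98.8 by length among all regions of the list. Within 5 kb of the TSS the share was 73.9%, at the percentile of 92.5. Intron 1, of 64317 bp, held 16 regions and was covered to 49.2%, and intron 3 to 59.2% by 9 regions. The 3′ UTR was covered to 87.3%, while the downstream flank had no region. Coverage was thus high at both ends of the transcript. The nearest protein-coding genes were far away: 4933402N22Rik, 460344 bp upstream, had 23.3%, and Gm10481, 453309 bp downstream, had 2.14%. The stretches up to these genes were covered to 31.3% upstream and 25.3% downstream.

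Class 3 semaphorins act through neuropilins and plexins. The 7 receptor genes had a median covered share of 33.2%, from 5.92% at Plxnd1 to 50.8% at Plxna3. Regions lay over 2 of their start sites, beside 24.2% for all protein-coding genes. The 7 class 3 semaphorin genes, Sema3d included, had a median of 29.0%, from 9.24% at Sema3f to 52.9% at Sema3g. With regions shorter than 1 kb left out, that median was 14.9%. A region lay over the TSS at 4 of the 7, beside the same 24.2%. Sema3d came second to Sema3g among its family in the share of its window. By percentile among genes of like length, Sema3d at 89.0 was below Sema3g at 94.0 and below another gene of the family at 98.0.

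Rspo1 encodes R-spondin 1, a secreted protein that strengthens Wnt signalling and is expressed in the epicardium. Its gene, chr4:124663674-124686343 on the plus strand, had the most regions per kb of all members, 0.459, at the percentile of 96.0. They were short, the longest measuring 1950 bp, and the 15 regions covered 34.3% of the window, at the percentile of 76.5. Without regions shorter than 1 kb the share was 14.5%, and the percentile 48.0. The start was little covered. Within 5 kb of the TSS the share was 7.65%, beside a median of 21.7% in genes of like length, and the nearest region was the printed one of 240 bp, which ended 1255 bp upstream. Intron 2, of 13555 bp, was covered to 50.2%, and the 3′ UTR of 557 bp completely. Cdca8, upstream, had a covered share of 7.18%, and Gnl2, downstream, 29.7%.

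R-spondins bind LGR receptors and remove the ubiquitin ligases RNF43 and ZNRF3 from the cell surface. The 5 genes for these receptors and ligases had a median of 22.3%. None had a region over the TSS, beside 24.2% of all protein-coding genes. Lgr6 had the highest share, 32.1%, and Rnf43 the lowest, 11.1%. One of the 5 lay above the median of genes of its length. The 4 R-spondin genes had a median of 32.5%, from 28.6% at Rspo2 to 40.5% at Rspo4, and 1 had a region over the TSS. The shares of both lists overlapped. Within 5 kb of the TSS their medians were 10.9% for the R-spondin genes and 12.9% for the receptors and ligases.

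**Figure D3:**
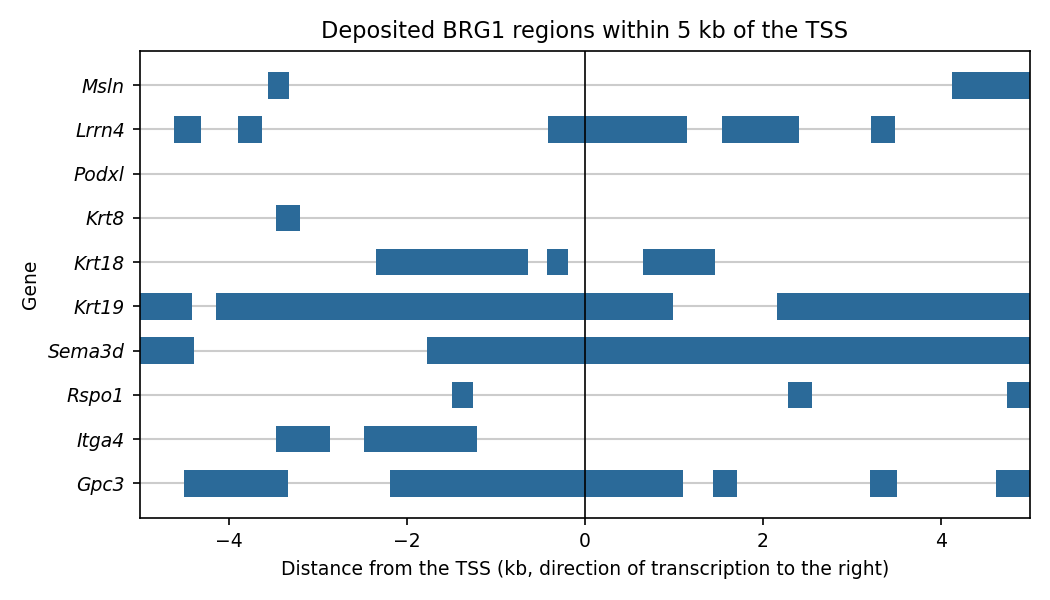
Regions (blue) within 5 kb of the TSS of the 10 members, with the distance from the TSS in kb on the horizontal axis, negative values upstream, and the genes on the vertical axis. Regions cross the TSS at Lrrn4, Krt19, Sema3d and Gpc3, and none is present at Podxl.

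Keratins 8, 18 and 19 form the filaments of simple epithelia and of mesothelium, in which the type II keratin 8 pairs with a type I keratin, 18 or 19. These 3 genes included both the lowest and the highest covered share of the 10 members. Krt8, at chr15:101827142-101834773 on the minus strand, had no region in its body. Its window held a region of 270 bp, from 3466 to 3197 bp upstream of the TSS, and one of 240 bp downstream, together 2.89% of the bases, at the percentile of 6.00, and with 2 kb flanks it held none. Krt18, 23873 bp away at chr15:101858647-101862457 on the plus strand, had 3 regions and a covered share of 20.0%, at the percentile of 51.0. That share was 12.4% with regions of at least 1 kb alone and 30.9% with 2 kb flanks. They lay around its start, with the longest of them, 1710 bp, upstream of the TSS and another over 75.5% of the first intron, but none over the TSS. The bases between both genes were covered to 15.1%. On their far sides, Krt78 next to Krt8 had a covered share of 22.6%, and Eif4b next to Krt18 had 28.2%. Krt8 and Krt18, which stand head to head and encode partners of 1 filament, thus differed in coverage.

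Krt19 had the most coverage of all 10 members. Its gene model spans chr11:100002124-100009979 on the minus strand, and 62.1% of its window and 79.4% of its body lay inside regions, at percentiles of 97.0 and 96.0. Regions of 5130 and 4890 bp made up most of this. The first lay over the TSS of the gene model, from 4140 bp upstream to 989 bp downstream, and the other over the start of the coding transcript. The first intron, the 5′ UTR and the 3′ UTR of the coding transcript were covered completely, and its coding exons to 81.7%. Within 5 kb of the TSS the share was 85.6%, or 83.8% around the coding start. Coverage ended at the 3′ end of the gene, with 2.48% in the downstream flank. Krt15, 4860 bp downstream, had a covered share of 8.41%, and Krt9, upstream, 14.4%. By number, its 4 regions were at the percentile of 39.5, below the median of genes of like length.

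Both keratin clusters hold genes with wide coverage and genes with almost none. Over the 46 keratin genes whose symbol is Krt and a number alone the median covered share was 18.2%, below the 25.2% of all protein-coding genes. Among genes of like length their median percentile was 41.8, and 17 of the 46 lay above the median. Of the 46, 8 had a region over the TSS, beside 24.2% of all protein-coding genes. With the 4 keratin genes that carry a letter after the number, the median of 50 genes was 19.4%. In the type I cluster on chromosome 11, the 25 genes had a median of 14.4%, or 17.5% with 2 lettered genes. Krt19 had the highest share of all 27, and Krt10, Krt13 and Krt23 had no region in their windows. The whole span of this cluster was covered to 24.6%. In the type II cluster on chromosome 15, including Krt18, the 21 genes had a median of 20.0%, unchanged with 2 lettered genes, and the span was covered to 18.0%. Krt1, a keratin of the upper epidermis, had the highest share of them, 87.1%, and Krt8 the lowest. The epidermal Krt1 thus exceeded Krt19, a keratin of mesothelium, and so did another keratin of chromosome 15, at 70.9%. On chromosome 11, the keratin next below Krt19 had 61.0%.

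**Figure D4:**
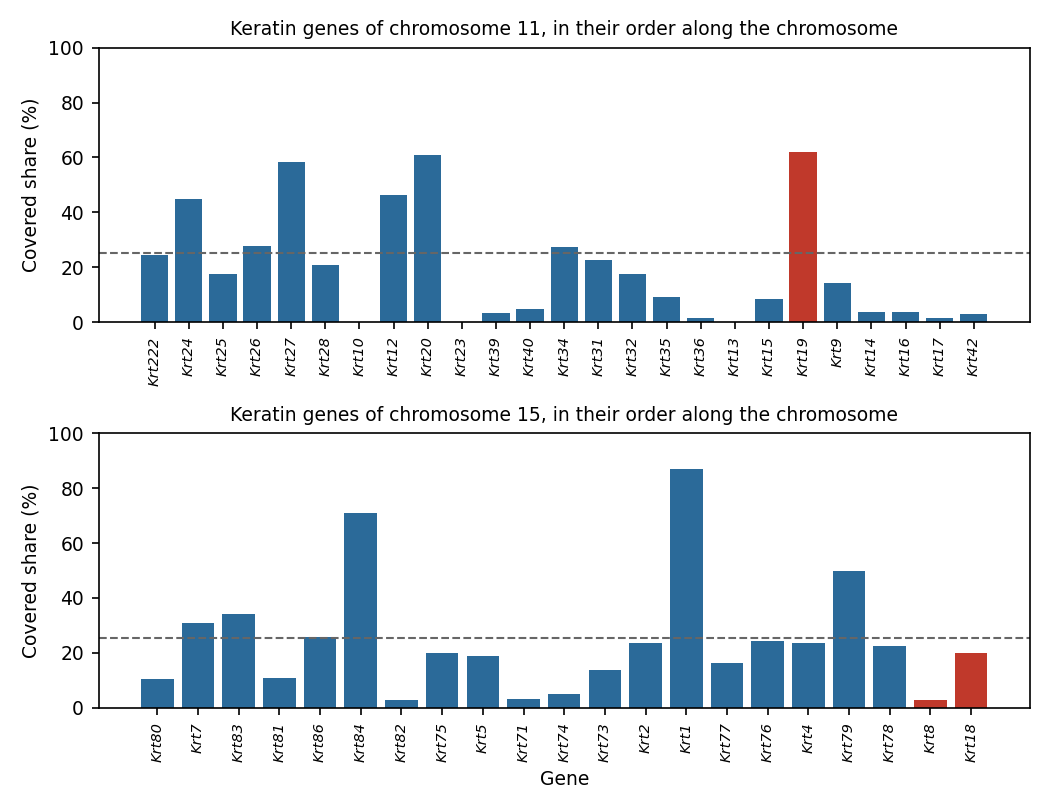
Percentage of bases of the gene body and 5 kb flanks inside regions (vertical axis) for the keratin genes with a symbol of Krt and a number alone on chromosome 11 (top) and chromosome 15 (bottom), in their order along the chromosome; members are red and the dashed line is the median of all protein-coding genes, 25.2%. Krt19 exceeds all other plotted keratins of chromosome 11, and Krt8 has the lowest bar of chromosome 15.

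The members were also set out by the parts of a gene, each taken from the coding transcript with the longest coding sequence. Of the 182 regions, 138 lay wholly in introns, 23 touched an exon, 12 lay upstream and 8 downstream. The remaining region, at Krt19, ran from the upstream flank into the gene body, outside the coding transcript. The upstream flank was touched at 9 of 10 members, beside 76.3% of all protein-coding genes, with Podxl as the exception. Coding exons were touched at 9 of 10, beside 70.3%, with Krt8 as the exception. The first intron was touched at 7 of 10, beside 65.2% of genes with an intron, and not at Msln, Krt8 and Itga4. The 3′ UTR was touched at 6 of 10, beside 40.1% of genes that have one, namely at Lrrn4, Podxl, Krt19, Sema3d, Rspo1 and Itga4.

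Pooled over the members, UTRs had the highest covered shares of all parts. Of the 16537 bases of 3′ UTR, 66.1% lay inside regions, beside 27.7% for all protein-coding genes. Podxl, Sema3d and Itga4 supplied most of these bases. Of the 2345 bases of 5′ UTR, 49.6% were covered, beside 24.9%, and the 5′ UTR of Lrrn4, Krt19 and Gpc3 lay completely inside regions. Introns, most of whose bases belong to Gpc3 and Sema3d, were covered to 33.6%, beside 27.6%, and coding exons to 21.8%, beside 26.0%. Along the TSS, coverage of the members was higher in the innermost 2 kb upstream and 1 kb downstream than further out. From 2 to 1 kb upstream it was 48.0%, beside 27.2% for all protein-coding genes, and over the first 1 kb downstream 43.4%, beside 25.5%. From 2 to 1 kb upstream, the members touched were Krt18, Krt19, Sema3d, Gpc3, Itga4 and Rspo1, and over the first 1 kb downstream they were Lrrn4, Krt18, Krt19, Sema3d and Gpc3. The median share within 5 kb of the TSS, 23.1%, was near the 22.2% of all protein-coding genes, and its median percentile was 52.4. The members were spread from 0% at Podxl to 85.6% at Krt19 around this ordinary median.

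Other genes of the same cell layer were counted in the same way. The 20 other genes known from mesothelium or epicardium had a median covered share of 30.2%, beside 34.4% for the members. A region lay over the TSS at 8 of the 20, beside 24.2% of all protein-coding genes. Ezr had the highest share of them, 53.5%, and Igfbp6, which encodes a binding protein for insulin-like growth factors, the lowest, 4.36%. The 11 other epicardial genes that the study displayed had a median of 45.2%, with 3 start sites inside regions, from 2.33% at Tcf21 to 56.9% at Tbx18, which both encode epicardial transcription factors. That list was chosen by the study on these hearts, so it is not independent evidence of coverage at epicardial genes. The study presented its displayed genes as BRG1-enriched in both PBS-primed and Tβ4-primed hearts. Krt8, also displayed but counted here among the members, had 2.89%. The order of the lists depended on the measure. For the window, the median of the members lay between those of both lists, and within 5 kb of the TSS it lay below both. For the gene body alone and with regions of at least 1 kb, it lay below that of the displayed genes. There it was nearly equal to that of the 20 other genes. Within 5 kb of the TSS the medians were 23.1% for the members, 33.3% for the 20 other genes and 32.7% for the displayed genes. With regions of at least 1 kb they were 22.7%, 23.2% and 34.3% in the same order. Over the gene body the 20 other genes had 30.5%, barely above the members, and the displayed genes had 48.5%. By these last measures the gap between the members and the 20 other genes was small beside the spread among the members. It therefore does not rank the members below the 20 other genes.

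**Figure D5:**
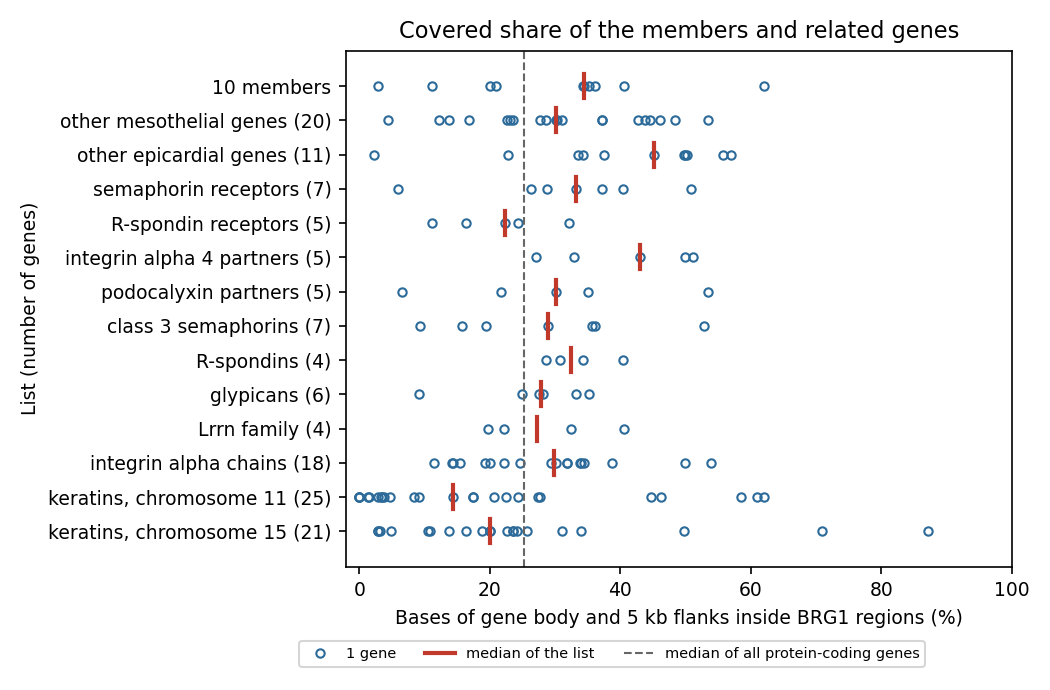
Percentage of bases of the gene body and 5 kb flanks inside regions (horizontal axis) for every gene (circles) of the 10 members and of the related lists (vertical axis, with the number of genes); red bars are the medians of the lists and the dashed line is the median of all protein-coding genes, 25.2%. The genes of most lists spread on both sides of that line.

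Coverage beyond the windows varied between members. Outside the Krt19 window, the bases up to 50 kb from the gene were covered to 18.1%, against 62.1% within it. Coverage went on upstream, with 46.9% of the bases between Krt19 and Krt9 inside regions. Around Lrrn4 the share was 22.1%, and around Gpc3 22.8%, near the 23.6% of the X chromosome, both below the share of the gene's own window. At Itga4 the surroundings had 34.4% and at Sema3d 34.0%, close to the windows themselves. Among the members with low coverage, the surroundings had 8.73% at Podxl and 16.8% at Krt8.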

How the data were processed

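BRG1 ChIP-seq was made from Tβ4-primed and PBS-primed, infarcted mouse hearts. The authors mapped reads with Bowtie 1.0.0 to mm9 and called enriched regions with MACS2 2.0.10. The deposited list for Tβ4-primed hearts gives positions in bp, with no score. The paper names the bdgcomp function of MACS2, but the names of the regions have the form of a comparison of conditions, so the rule that defines a region is uncertain. The way duplicates were combined is not stated, and the depth is unknown. Groups were taken from the labels.

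Regions were counted over GENCODE gene models of mm9 with Python 3.11.15 and numpy 2.4.6, and drawn with matplotlib 3.10.9. Intervals came from scipy 1.17.1. Counts were checked against bedtools 2.31.1 and tested on simulated data. The promoter was the 250 bp upstream of the TSS of the gene model. Gaps between exons under 30 bp were closed. In a percentile, a tie counted as midway between below and above. No test was run.

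The members and lists were chosen with earlier results of these data known. Named genes are all 10 members, the genes with the highest and lowest covered share of every other list, and the nearest protein-coding gene on either side of each member. Alternatives changed the regions, flanks, overlap, TSS, length matching and measure. Those for related lists, for 500 bp promoters, with lettered keratin symbols and without the regions of Gpc3 and Sema3d were added after seeing the data.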

Additional observations from a re-analysis of the deposited data

How the results depend on the processing

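Of 194 values under alternative settings, 176 were unchanged, meaning within 1.5 times for counts and shares, between 72.7 and 84.4 for the median percentile, and on the same side of the like-length median for regions per kb. The limits of 72.7 and 84.4 are the 95% exact binomial interval of a single percentile of 79.0 among 200 genes. They serve as a tolerance and are no interval for a median over members, whose own percentiles ran from 6.00 to 97.0. The numbers of members with a region stayed within 1.5 times under every setting tried. They were 8 to 9 in the gene body, 4 over the TSS, 7 to 10 near the TSS and 9 to 10 in the window. With regions of at least 1 kb alone, the median covered share of the members was 22.7% (17.9% for all protein-coding genes), its median percentile 68.2 and the median of the class 3 semaphorin genes 14.9%. The median percentile was 52.4 for the share within 5 kb of the TSS and 44.0 for regions per kb. The cause was not tested. Of the 18 values that moved, 13 belonged to single members. Krt8 had 0% with regions of at least 1 kb, with 2 kb flanks and with no flanks, and 1.85% with 10 kb flanks. Msln had 21.9% with 10 kb flanks and 19.4% with none, Krt18 12.4% with regions of at least 1 kb and 30.9% with 2 kb flanks, and Rspo1 14.5% with regions of at least 1 kb. By regions per kb, Krt18, Krt19, Itga4 and Gpc3 fell below the like-length median.

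Neither a stricter score threshold nor leaving out a replicate was possible, because the list has no score and pools the duplicates. No paired analysis was possible because the list does not separate animals or libraries. The depth is unknown, so a stretch without a region means only that none was called there.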
